A study of Mus musculus with 6 samples.

Results

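The 10 genes described here encode enzymes that make or break down prostaglandins and endocannabinoids, measured in 2 mouse ovarian surface epithelial (OSE) lines. They are *Dagla*, *Daglb*, *Mgll*, *Faah*, *Pla2g4a*, *Ptgs1*, *Ptgs2*, *Ptges*, *Ptgis* and *Hpgd*, 10 of the 20405 genes named on the array. The genes were taken by symbol, with the probe set of the highest mean kept for each gene, and all 10 had 1 probe set. The set was chosen by role with the measured differences between these same lines known, in which *Mgll* was among the largest rises and *Ptgs2* was also higher, so the differences below are a description and carry no test. M0505 is an OSE line of FVB/N mice at early passage, and STOSE is the line that arose when M0505 cells were passaged for a long time in culture and transformed with no engineered change. Both were grown in the same medium with fetal calf serum and epidermal growth factor. RNA of each line was hybridized to 3 Affymetrix Mouse Gene arrays, which the labels call biological replicates of the line. Each condition is thus 1 cell line, and the spread given is that between arrays of a line.

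Arachidonic acid is the shared currency of both pathways. Cytosolic phospholipase A2 frees it from membrane lipids, the cyclooxygenases turn it into prostaglandin H2, and terminal synthases finish the prostaglandins, which act on receptors of neighbouring cells before a dehydrogenase inactivates them. The endocannabinoid 2-arachidonoylglycerol is made by diacylglycerol lipases and split by monoacylglycerol lipase, which releases arachidonic acid again, while fatty acid amide hydrolase splits the other main endocannabinoid, anandamide. In the ovary, prostaglandins made by cyclooxygenase 2 are known for their part in ovulation, in which the follicle ruptures through the surface epithelium.

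A gene was called where limma, fitted to all 20405 genes, gave an adjusted p under 0.05 and the lines differed at least 2-fold. Of the 10 enzymes, 3 were called higher in STOSE cells (*Mgll*, *Dagla* and *Ptgs2*), beside 4.9% of all genes, and 2 were called lower (*Faah* and *Daglb*), beside 7.59% of all genes. The adjusted p alone was passed by 6 of the 10, against 56.5% of all genes, and the arrays of the lines did not overlap for 8 of the 10, against 64.6% of all genes. The median absolute log2 fold change was 0.75 for the enzymes and 0.25 for all genes. Since this contrast chose the genes, nothing is read from these shares. All 4 endocannabinoid enzymes were called, 2 in each direction, and of the 6 prostaglandin genes only *Ptgs2* was.

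**Figure D1:**
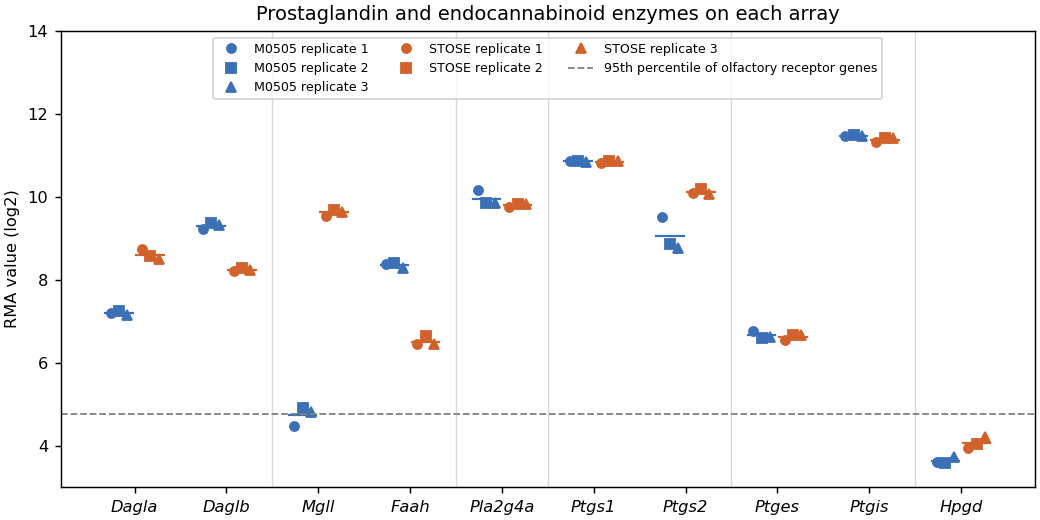
Log2 RMA value (vertical axis) of each enzyme gene on each of the 3 M0505 arrays (blue) and 3 STOSE arrays (orange), with a bar at the mean of the line and a dashed line at the 95th percentile of olfactory receptor genes. The arrays of the lines lie far apart for *Mgll*, and close together for *Ptgs1*, *Ptges* and *Ptgis*, and *Hpgd* lies under the dashed line on all 6 arrays. The height of a point depends on the probes, so genes cannot be ranked against each other.

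The diacylglycerol lipases, which cleave diacylglycerol to 2-arachidonoylglycerol, moved in opposite directions. *Dagla*, on chromosome 19, read 7.19, 7.24 and 7.16 on the log2 scale in M0505 cells and 8.74, 8.57 and 8.50 in STOSE cells. Every STOSE array lay above every M0505 array, and the mean rose from 7.20 ± 0.04 (SD, n = 3) to 8.60 ± 0.13 (SD, n = 3). This was a 2.65-fold higher level, with a log2 fold change of 1.40 (SE 0.07, 95% interval 1.23 to 1.58). *Daglb*, on chromosome 5, read 9.23, 9.38 and 9.31 in M0505 cells and 8.20, 8.28 and 8.23 in STOSE cells, so that every STOSE array lay below every M0505 array. Its mean went from 9.31 ± 0.07 (SD, n = 3) to 8.24 ± 0.04 (SD, n = 3), a 2.10-fold lower level and a log2 fold change of -1.07 (SE 0.06, 95% interval -1.21 to -0.93). The *Daglb* difference lay close to the 2-fold threshold. It lost its call, at -0.87, when each array was centred on the median of the genes kept. That scaling moved the median log2 fold change of all genes from 0.08 to 0.28. The difference of *Dagla* minus *Daglb*, taken within each array and averaged by line, rose by 2.47 on the log2 scale from M0505 to STOSE cells.

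The hydrolases of the endocannabinoids also moved apart. *Mgll*, the monoacylglycerol lipase gene on chromosome 6, read 4.46, 4.91 and 4.81 in M0505 cells and 9.54, 9.69 and 9.65 in STOSE cells. It was the gene with the widest gap of the 10, and its rise ranked 12 among those of all genes on the array. The mean went from 4.73 ± 0.24 (SD, n = 3) to 9.63 ± 0.08 (SD, n = 3), a 29.8-fold higher level with a log2 fold change of 4.90 (SE 0.11, 95% interval 4.64 to 5.16), and leaving out any one array gave 27.2- to 31.8-fold. The M0505 values were close to background, which was set at the 95th percentile of 1089 olfactory receptor genes, a log2 value of 4.75. Of the M0505 arrays, 2 lay above this level and 1 below it, so the fold of *Mgll* rests on a dim baseline.

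*Faah*, the fatty acid amide hydrolase gene on chromosome 4, read 8.38, 8.41 and 8.29 in M0505 cells and 6.44, 6.63 and 6.45 in STOSE cells. All values lay above background and the lines did not overlap. The mean went from 8.36 ± 0.06 (SD, n = 3) down to 6.51 ± 0.11 (SD, n = 3), a 3.62-fold lower level with a log2 fold change of -1.85 (SE 0.07, 95% interval -2.02 to -1.69). The opposite moves of *Mgll* and *Faah* held with each array left out and under each scaling that was run.

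The sequences just upstream of 3 of these genes are shown because *Mgll* had the largest rise of the 10 and *Faah* and *Daglb* were the 2 that fell. Each is 250 bases ending at the base before the RefSeq start site (assembly GRCm38.p6), written 5′ to 3′ on the strand of the gene, with capitals on any match to a core promoter or enhancer motif searched for. The *Mgll* window is chr6:88724162-88724411 on the plus strand, that of *Faah* chr4:116017925-116018174 on the minus strand and that of *Daglb* chr5:143464243-143464492 on the plus strand.
Mgll: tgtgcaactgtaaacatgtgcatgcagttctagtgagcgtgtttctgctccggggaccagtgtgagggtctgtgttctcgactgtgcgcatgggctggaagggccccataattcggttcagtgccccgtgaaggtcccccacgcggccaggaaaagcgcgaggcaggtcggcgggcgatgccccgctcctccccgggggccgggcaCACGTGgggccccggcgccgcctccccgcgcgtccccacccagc
Faah: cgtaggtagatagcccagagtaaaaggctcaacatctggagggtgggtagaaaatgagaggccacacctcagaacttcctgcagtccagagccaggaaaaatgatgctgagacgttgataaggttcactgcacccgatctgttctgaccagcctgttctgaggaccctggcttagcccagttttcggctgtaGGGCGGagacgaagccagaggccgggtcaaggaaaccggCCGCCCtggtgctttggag
Daglb: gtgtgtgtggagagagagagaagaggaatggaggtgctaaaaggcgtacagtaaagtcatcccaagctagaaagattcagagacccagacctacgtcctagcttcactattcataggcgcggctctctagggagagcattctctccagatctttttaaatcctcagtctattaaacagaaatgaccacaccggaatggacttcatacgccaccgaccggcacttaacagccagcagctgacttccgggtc
In *Mgll* the capitals mark an E-box, CACGTG, at positions -44 to -39 from the start site. In *Faah* they mark a GC box, GGGCGG, on each strand, at -58 to -53 and at -19 to -14. The *Daglb* window held none of the motifs searched. The *Mgll* window was 68% G and C with 23 CpG pairs, against 55.6% and 9 for *Faah*, 49.2% and 9 for *Daglb*, and medians of 52.4% and 6 over all 32851 RefSeq windows of this length. RefSeq gave *Mgll* another start site downstream, whose window held 40 CpG pairs.

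*Pla2g4a*, the gene of cytosolic phospholipase A2, lies on chromosome 1 as the immediate neighbour of *Ptgs2*. It read 10.18, 9.85 and 9.85 in M0505 cells and 9.75, 9.84 and 9.83 in STOSE cells. The lines did not overlap, but the gap between the lowest M0505 array and the highest STOSE array was only 0.01. The log2 fold change was -0.15 (SE 0.10), with a 95% interval of -0.37 to 0.07, which spans 0 and stays well short of a 2-fold difference.

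The cyclooxygenases differed from each other. *Ptgs1*, which encodes cyclooxygenase 1, the form present in most tissues, read 10.87, 10.88 and 10.84 in M0505 cells and 10.82, 10.86 and 10.87 in STOSE cells. These values overlapped, and the log2 fold change of -0.01 had a 95% interval of -0.14 to 0.11 (SE 0.05). *Ptgs2*, which encodes the inducible cyclooxygenase 2, read 9.51, 8.86 and 8.78 in M0505 cells and 10.10, 10.20 and 10.07 in STOSE cells. All STOSE arrays were above all M0505 arrays, and the mean rose from 9.05 ± 0.40 (SD, n = 3) to 10.12 ± 0.07 (SD, n = 3), or 2.10-fold, with a log2 fold change of 1.07 (SE 0.17, 95% interval 0.67 to 1.47).

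*Ptgs2* had the widest interval of the 10 genes, and its M0505 arrays were the most spread. M0505 replicate 1 stood 0.69 above the mean of the other 2 M0505 arrays, a deviation that only 0.505% of all genes exceeded on that array. On the same array *Pla2g4a* stood 0.33 above the other 2, *Ptges* 0.17 above and *Mgll* 0.40 below, whereas *Ptgs1* differed by 0.01. Over all genes, the median absolute deviation of this array from the mean of its line was 0.062, the largest of the 6 arrays. It was 0.051 and 0.052 for the other M0505 arrays and 0.046 to 0.061 for the STOSE arrays. Without replicate 1 the log2 fold change of *Ptgs2* was 1.30, and without M0505 replicate 2 or 3 it was 0.98 or 0.94, under the 2-fold threshold. The part of M0505 replicate 1 in these values was not tested.

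The start of the *Ptgs2* gene is shown because it was the prostaglandin enzyme that rose. The first sequence is the 250 bases upstream of the RefSeq start site, at chr1:150099781-150100030. The second is 30 bases just after that annotated start, at chr1:150100035-150100064, and both are on the plus strand of GRCm38.p6. Positions are counted from this annotated start and would shift with another one.
Ptgs2 upstream: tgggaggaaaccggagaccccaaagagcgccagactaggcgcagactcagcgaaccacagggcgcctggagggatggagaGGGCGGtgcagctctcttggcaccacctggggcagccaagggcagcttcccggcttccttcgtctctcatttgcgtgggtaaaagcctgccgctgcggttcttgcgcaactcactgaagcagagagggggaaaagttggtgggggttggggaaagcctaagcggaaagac
Ptgs2 start: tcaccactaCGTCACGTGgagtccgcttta
Upstream, the capitals mark a GC box at -170 to -165. In the second sequence they mark an E-box at positions 17 to 22 and, overlapping it, the core of the cAMP response element, TGACG, read on the minus strand at 14 to 18. Windows of *Dagla* and *Ptgis* were not used here. Among the 10 RefSeq windows that covered the other 8 genes, an E-box was found in 1 of 10 when 250 upstream bases were searched, and in 2 of 10, those of *Mgll* and *Ptgs2*, when 50 bases after the start were added. The share of all RefSeq windows with an E-box was 6.02% and 7.15%. The longer window was adopted after the *Ptgs2* sequence had been seen.

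The other motifs were searched on both strands in the same windows. In the 300 bases TGACG was in 2 of 10 windows (*Ptgs2* and the downstream *Mgll* window) beside 20.8% of all, and in 0 of 10 beside 17.8% in the upstream 250. The GC box GGGCGG was in 6 of 10 beside 35.7%, or 5 beside 32.7%. TATAAA was in 2 beside 13.6%, or 1 beside 12.4%, CCAAT in 1 beside 37.4%, or 0 beside 33.8%, and the AP-1 site TGACTCA in 0 beside 5.20%, or 0 beside 4.46%. A match is a run of letters and says nothing of binding. TGACG on the other strand reads CGTCA, whose last letters CA open CACGTG, so these motifs can share bases, as they do in *Ptgs2*.

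The enzymes downstream of the cyclooxygenases differed little between the lines. *Ptges*, the microsomal prostaglandin E synthase 1 gene that is often induced with *Ptgs2*, read 6.77, 6.59 and 6.61 in M0505 cells and 6.54, 6.67 and 6.67 in STOSE cells. The lines overlapped, and the log2 fold change was -0.03 (SE 0.07, 95% interval -0.20 to 0.14). *Ptgis*, the prostacyclin synthase gene, read 11.47, 11.50 and 11.47 in M0505 cells and 11.33, 11.42 and 11.41 in STOSE cells. Its STOSE arrays all lay below its M0505 arrays, by a log2 fold change of -0.09 (SE 0.06) with a 95% interval of -0.22 to 0.03. The small differences of *Pla2g4a*, *Ptgs1*, *Ptges* and *Ptgis* were at most 0.16 in size, and no sign is read from them. Each turned positive under at least 1 other scaling, at up to 0.19. For *Pla2g4a* and *Ptgis* the only such scaling was centring on the genes kept.

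*Hpgd* encodes the dehydrogenase that inactivates prostaglandins. It read 3.60, 3.58 and 3.71 in M0505 cells and 3.94, 4.03 and 4.20 in STOSE cells. All 6 values lay under the background level of 4.75, so no difference is read from them, although the gene is 1 of the 6 past the adjusted p and 1 of the 8 whose arrays did not overlap.

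**Figure D2:**
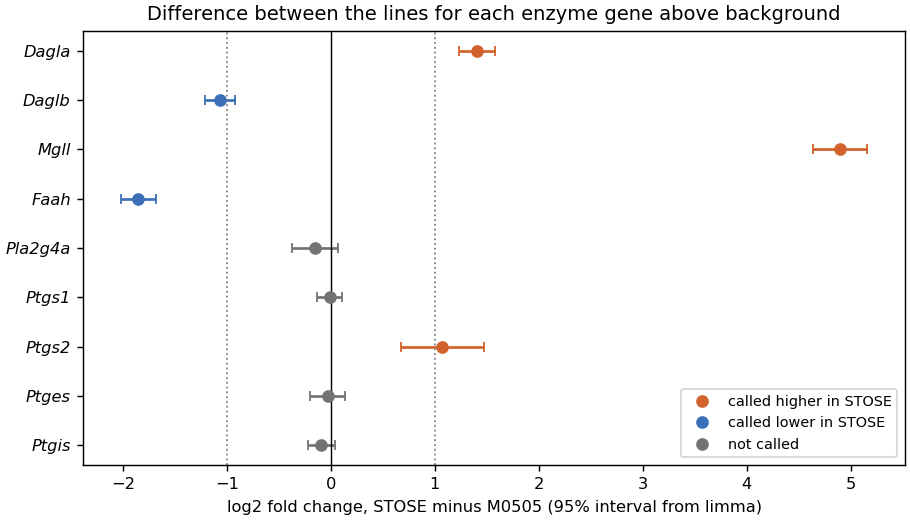
Log2 fold change, STOSE minus M0505 (horizontal axis), of the 9 enzyme genes above background (*Hpgd* is left out), with bars for the 95% interval from limma over 3 arrays per line and dotted lines at 2-fold. *Mgll*, *Dagla* and *Ptgs2* lie to the right and *Faah* and *Daglb* to the left. The intervals of *Pla2g4a*, *Ptgs1*, *Ptges* and *Ptgis* span 0.

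Beyond these enzymes, 79 of 82 further genes of the pathways were on the array, listed by their role. The lists were made with earlier results of these data known, so their shares are a description and carry no test. Of the 79, 3 (3.80%) were called higher in STOSE cells, beside 4.9% of all genes, and 11 (13.9%) lower, beside 7.59%, with a median log2 fold change of 0.06 beside 0.08 for all genes. The adjusted p-values that follow are from limma over all 20405 genes. The list of 12 other endocannabinoid enzymes had 0 called higher, beside 4.9% of all genes, and 5 (41.7%) called lower, beside 7.59%, with a median log2 fold change of -0.70 beside 0.08. Under the 3 other scalings 3 or 4 of these 5 were called, and none of the 12 was called higher.

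The enzymes on the routes from N-acyl phosphatidylethanolamine to anandamide and its relatives were called in part. *Napepld*, *Abhd4* and *Gdpd3* were called lower, while *Gdpd1* and *Gde1*, phosphodiesterases of the same routes, had log2 fold changes of -0.54 and -0.18 and were not called, and *Ptpn22*, a phosphatase, was at background. *Napepld*, the phospholipase D that makes anandamide from that lipid, read 9.12, 9.20 and 9.28 in M0505 cells and 7.96, 8.03 and 8.06 in STOSE cells, a log2 fold change of -1.18 (SE 0.06, limma adjusted p = 1.46e-06) that was -0.98, under 2-fold, when arrays were centred on the genes kept. *Abhd4*, a lipase of the alternative route, went from 10.48 ± 0.03 (SD, n = 3) to 9.06 ± 0.02 (SD, n = 3), a log2 fold change of -1.42 (limma adjusted p = 2.22e-07). *Gdpd3*, a lysophospholipase D, read 7.57, 8.13 and 7.99 in M0505 cells and 4.39, 3.85 and 4.17, under background, in STOSE cells. Set against the background level, it was at least 8.83-fold lower, or 3.14 on the log2 scale (limma adjusted p = 5.23e-07). *Naaa*, the acid amidase that splits N-acylethanolamines in lysosomes, read 11.24, 11.21 and 11.22 in M0505 cells and 9.11, 9.55 and 9.57 in STOSE cells, a log2 fold change of -1.82 (limma adjusted p = 3.68e-06).

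The hydrolases that share the substrate of monoacylglycerol lipase were not called higher with it. *Abhd12* was called lower at a log2 fold change of -1.004 (limma adjusted p = 4.16e-06), just at the threshold, and lost its call under all 3 other scalings. *Abhd6* read 8.72, 8.93 and 8.96 in M0505 cells and 9.02, 9.04 and 9.03 in STOSE cells, a log2 fold change of 0.16 with a 95% interval of -0.01 to 0.33. Of the lipases and phospholipases that complete the list, *Lipe*, the hormone-sensitive lipase gene, was 0.87 lower (limma adjusted p = 6.06e-06) without reaching 2-fold.

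Cannabinoid receptors gave no signal above background in either line. *Cnr1* read 4.02, 3.81 and 4.03 in M0505 cells and 4.06, 3.98 and 4.15 in STOSE cells, and *Cnr2* 3.83, 3.96 and 4.05 against 4.25, 4.28 and 4.30. Of the 12 receptors and carriers of endocannabinoids and related lipids, 0 were called, beside 4.9% of all genes called higher and 7.59% lower. Of the 12, 5 passed the limma adjusted p without reaching 2-fold and 7 were at background in both lines. These counts overlap, since *Cnr2* is in each, and no difference is read from its values under background. *Fabp5*, a fatty acid binding protein that carries such lipids, was well above background and went from 8.13 to 8.69, a log2 fold change of 0.56 (limma adjusted p = 0.000423).

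**Figure D3:**
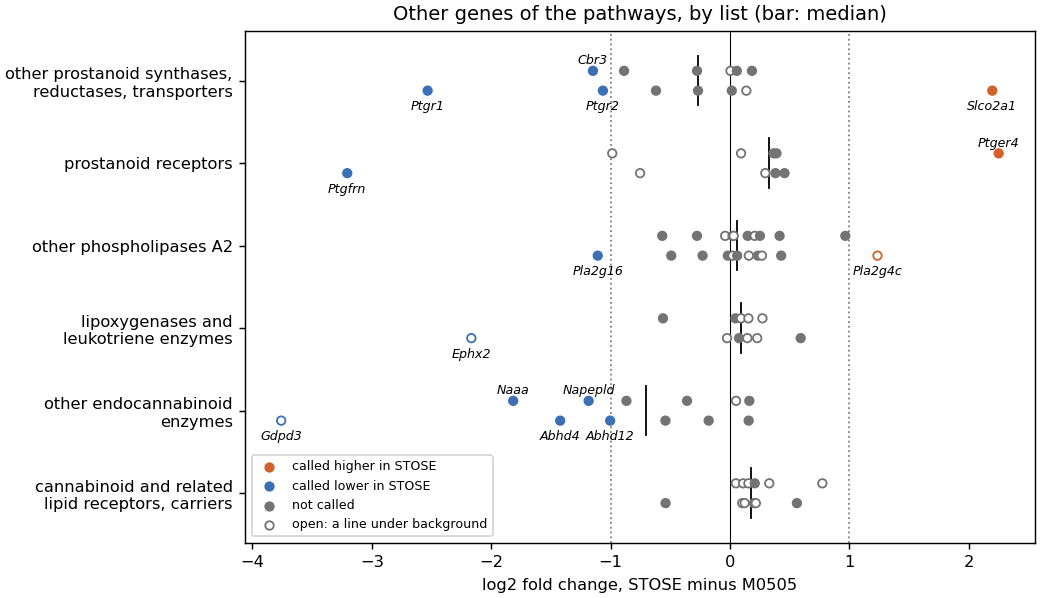
Log2 fold change, STOSE minus M0505 (horizontal axis), of the 79 other pathway genes, 1 point per gene in 6 lists by role. Black bars mark the median of a list, dotted lines 2-fold and open points genes with a line under background on all its arrays, whose plotted difference is not a measured size. The called genes are named, 3 higher in orange and 11 lower in blue, and 5 of the 11 belong to the endocannabinoid enzymes.

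On the prostaglandin side, a transporter and a receptor were called higher. *Slco2a1*, the transporter that takes prostaglandins up into the cell, read 5.55, 5.34 and 5.70 in M0505 cells and 7.65, 7.88 and 7.65 in STOSE cells, 4.58-fold higher (log2 fold change 2.20, SE 0.10, limma adjusted p = 7.02e-07). *Ptger4*, the EP4 receptor of prostaglandin E2, read 6.24, 5.78 and 5.70 in M0505 cells and 8.60, 8.08 and 7.80 in STOSE cells, 4.76-fold higher (log2 fold change 2.25, SE 0.21, limma adjusted p = 3.11e-05). In both genes every STOSE array lay above every M0505 array. The other EP receptors were not called, with *Ptger1* at 5.59 and 5.97 in M0505 and STOSE cells. *Ptger2*, at 3.33 and 3.42, was under background in both lines, so no difference is read from it. *Ptger3*, at 5.11 and 4.36, was under background in STOSE cells, and was at least 1.28-fold lower against the background level (limma adjusted p = 0.00105).

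In the list of 13 other prostanoid synthases, reductases and transporters, 3 (23.1%) were called lower in STOSE cells, beside 7.59% of all genes. All 3 are reductases that act on prostaglandins and related carbonyl compounds. *Slco2a1* was the 1 called higher (7.69%, beside 4.9% of all genes). *Ptgr1*, which reduces the 15-keto products and also acts on leukotriene B4, read 10.69, 10.59 and 10.64 in M0505 cells and 7.94, 8.26 and 8.13 in STOSE cells. It was 5.79-fold lower (log2 fold change -2.53, SE 0.09, limma adjusted p = 1.08e-07). *Ptgr2*, a related reductase, had a log2 fold change of -1.06 and *Cbr3*, a carbonyl reductase, one of -1.15, and both lost their call when arrays were centred on the genes kept. The remaining 9 of the 13 genes in this list were not called, among them the other prostaglandin E synthases, *Ptges2* with a log2 fold change of 0.18 and *Ptges3* with 0.06. *Abcc4*, which exports prostaglandins, had a log2 fold change of -0.89 (limma adjusted p = 0.000656) and did not reach 2-fold. The synthases of prostaglandin D2 in blood cells, *Hpgds*, and of thromboxane, *Tbxas1*, were at background in both lines.

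Of the 10 genes of the receptor list, 1 was called in each direction (10%), beside 4.9% higher and 7.59% lower of all genes. The gene called lower was *Ptgfrn*, which encodes a partner protein of the prostaglandin F receptor and not a receptor for the lipid. It fell by 3.21 on the log2 scale, from 8.66 ± 0.16 (SD, n = 3) to 5.45 ± 0.06 (SD, n = 3) (limma adjusted p = 3.21e-08). *Ptgfr*, the receptor itself, read 5.80, 5.16 and 5.03 in M0505 cells and 4.10, 4.49 and 4.43, under background, in STOSE cells. It was not called, and was at least 1.49-fold lower against the background level (limma adjusted p = 0.00261). The prostacyclin receptor *Ptgir* lay close to background, at 4.78 and 5.17.

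Of 21 other phospholipases A2, 1 was called in each direction (4.76%), near the 4.9% higher and 7.59% lower of all genes. *Pla2g4c*, a relative of *Pla2g4a*, was under background on all M0505 arrays, at 4.39 ± 0.11 (SD, n = 3), and reached 5.62 ± 0.17 (SD, n = 3) in STOSE cells (limma adjusted p = 1.1e-05). Set against the background level it was at least 1.83-fold higher, a bound under the 2-fold threshold that its measured difference passed. *Pla2g16* was lower, with a log2 fold change of -1.11 (limma adjusted p = 0.000119), and lost its call after quantile normalization and after centring on the genes kept. *Pla2g7*, which hydrolyses platelet-activating factor, missed the threshold at 0.97 and passed it under those same scalings. In the list of 11 lipoxygenases and leukotriene enzymes, 1 (9.09%) was called lower, beside 7.59% of all genes, and 0 higher, beside 4.9%. The gene called was *Ephx2*, the soluble epoxide hydrolase that clears epoxides of arachidonic acid. It went from 6.06 ± 0.25 (SD, n = 3) to 3.89 ± 0.07 (SD, n = 3), under background, and so was at least 2.47-fold lower (limma adjusted p = 1.4e-06). The 5-lipoxygenase gene *Alox5* was at background, at 4.37 and 4.59.

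The genes around the 5 called enzymes on their chromosomes were read for their own differences. Of the 100 nearest genes in all, 9 (9%) were called higher and 2 (2%) lower, beside 4.9% and 7.59% of all genes, and nothing is drawn from these small counts. Of the 20 nearest genes of *Mgll*, 10 on each side in the gene order of GRCm38.p6, 2 were called higher and 1 lower, with a median log2 fold change of 0.09. For *Faah* it was 1 higher and 0 lower with a median of 0.28, for *Daglb* 1 and 0 with 0.15, for *Dagla* 2 and 0 with 0.06, and for *Ptgs2* 3 and 1 with 0.11. The neighbours of *Pla2g4a* are nearly those of *Ptgs2*. Copy number was not measured on these arrays, but the authors karyotyped both lines. They report mostly near-triploid STOSE cells with a smaller polyploid population, and near-diploid or near-tetraploid M0505 cells. Chromosome 5, that of *Daglb*, is reported as lost in the near-triploid STOSE cells and hypoploid in the polyploid ones. Chromosomes 1 and 4, those of *Ptgs2* and *Faah*, had terminal deletions in M0505 cells, and chromosome 4 a terminal addition in STOSE cells. On chromosome 5, 35 of 1145 genes were called higher and 123 lower. The counts were 121 and 64 of 1183 on chromosome 4, and 80 and 99 of 1144 on chromosome 1. The part of these changes was not tested.

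**Figure D4:**
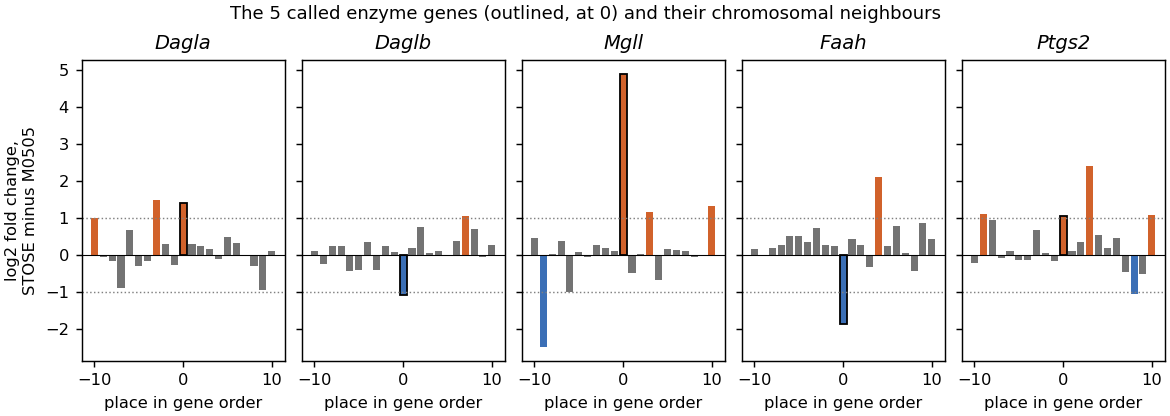
Log2 fold change, STOSE minus M0505 (vertical axis), of the 5 called enzyme genes (outlined, at place 0) and the 10 genes on each side in gene order (horizontal axis). Orange bars were called higher, blue bars lower and grey bars not called, and dotted lines mark 2-fold. *Mgll*, at 4.90, stands alone among its neighbours, which range from -2.48 to 1.33.

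The profiles most like that of *Mgll* over the 6 arrays, by the Euclidean distance after subtracting the M0505 mean of each gene, were those of *Calcrl* at a distance of 0.38, *Mmp8* at 0.38 and *Ereg* at 0.46. *Calcrl* encodes a receptor for calcitonin-related peptides, *Mmp8* a collagenase and *Ereg* a ligand of the epidermal growth factor receptor. The profiles most like that of *Faah* were those of *Taz* at 0.10, *Ppp3cc* at 0.11 and *Ahi1* at 0.12, genes of a mitochondrial lipid transacylase, a calcineurin subunit and a ciliary protein. With 2 lines, such a likeness says mostly that the sizes of the differences were alike.

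The arrays were alike within a line, with Pearson correlations over all genes of 0.997 to 0.999, and correlated at 0.943 to 0.950 between lines. In a population of cells, fewer cells that express a gene and less RNA per cell cannot be told apart. Of 12 OSE markers, 11 were above background in each line, with array means of 10.07 to 10.09 in M0505 cells and 8.87 to 8.98 in STOSE cells. *Wt1*, *Upk3b* and *Msln* were far above background in both, with log2 fold changes of -0.63, -0.34 and -0.61. Of the 12, 4 were called lower in STOSE cells (33.3%, beside 7.59% of all genes) and 0 higher, beside 4.9%. The 4 were *Krt19* (-5.56), *Krt8* (-4.55), *Gata4* (-1.38) and *Krt7* (-1.03). Of 10 leukocyte markers, 3 were above background in M0505 cells and 4 in STOSE cells, with array means of 4.88 to 4.92 and 4.81 to 4.84. The pan-leukocyte gene *Ptprc* read 3.79 and 3.81. *Cd68*, which is not confined to leukocytes, read 9.78 and 6.96 and was the 1 called lower (10%, beside 7.59% of all genes). The array means of 8 endothelial markers were 5.68 to 5.76 in M0505 cells and 4.72 to 4.78 in STOSE cells. *Kdr*, at 9.58 and 4.41, and *Esam*, at 8.12 and 5.35, were called lower (25%, beside 7.59% of all genes). *Pecam1* read 4.69 and 4.33 and *Emcn* 2.99 and 3.05. The array means of 8 granulosa markers were 6.11 to 6.20 and 5.33 to 5.40. *Inha*, at 9.61 and 5.68, and *Nr5a1*, at 7.97 and 5.39, were called lower (25%, beside 7.59% of all genes). *Foxl2*, at 6.76 and 6.39, and *Inhba*, at 7.47 and 7.73, lay above background and were not called. *Cyp19a1* and *Fshr* lay under background. For 7 fibroblast markers the array means were 7.17 to 7.21 and 7.24 to 7.32. *Thy1* was called higher and *Col1a2* lower (14.3% each, beside 4.9% and 7.59% of all genes). The array means of 8 mast cell and platelet markers were 3.99 to 4.02 and 4.09 on each STOSE array, with 0 called. The part of these markers in the values above was not tested.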

How the data were processed

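Total RNA of M0505 and STOSE cells was hybridized to Affymetrix Mouse Gene arrays, with 3 arrays per line. Per the labels, the arrays were processed with Affymetrix Expression Console and RMA, a method that subtracts background, brings the arrays to 1 distribution and merges the probes of a probe set. The authors deposited the result as log2 values in 1 table. The versions, the annotation release and the genome build are not given in the sources used here. The authors' columns of line means, ratios and fold changes were not used. All 6 columns of values were matched to arrays by name and 0 were left over.

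The table held 28944 probe sets, of which 5414 without a gene symbol were left out. The rest stood for 20405 genes, 1613 of them with several probe sets, for which the brightest probe set over the 6 arrays was used. The lines were compared in R 4.3.3 by limma 3.58.1 (lmFit, then eBayes), two-sided and with no covariate, with Benjamini-Hochberg adjustment over all genes. The code was tested on simulated data. With 3 arrays per line an exact permutation test cannot go below 0.1, so none was run. Arrays have no read depth, and their number limits the precision. The background level, the 95th percentile of olfactory receptor genes, was exceeded by 69.5% of all values and was adopted in earlier work after the data were seen. Where 1 line lay under it on all arrays, the fold was bounded by taking, on each array, the higher of this level and the measured value, which was added after the data were seen.

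The enzymes, the lists of pathway and marker genes and the tests were chosen with earlier results of these data known. All 10 enzymes are named, and of each pathway list the called genes, up to 6 by size. Other pathway genes were named after their values were seen, for their role. The profiles nearest to the largest rise and fall were found over the 6 arrays. Promoter sequences and gene order came from RefSeq (GRCm38.p6), and 8 of the 10 enzymes matched a promoter. The alternatives were a further quantile normalization, centring of arrays, filters on dim genes, the mean of probe sets, the methods' t-test, an intensity trend, other fold thresholds, a replicate block and leaving out each array.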

Additional observations from a re-analysis of the deposited data

How the results depend on the processing

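Without a fold threshold 6454 genes were called higher and 5066 lower, including 22 and 27 of the other pathway genes. With a threshold of 4-fold these were 186 and 509, including 2 pathway genes higher and 4 lower and, of the enzymes, 1 higher and 0 lower. The plan to centre each array on its median was first run on the genes kept and then, after the values had been seen, read as the median of all probe sets, so both are given. Centring on all probe sets added 0.01 to each log2 fold change and gave 1035 genes higher and 1514 lower. Centring on the genes kept added 0.20 and gave 1466 higher and 1177 lower, against 1000 and 1548 as deposited. It moved the median log2 fold change of all genes from 0.08 to 0.28, so it left the lines less balanced. It left 1 enzyme and 6 pathway genes called lower, with *Daglb* at -0.87, and turned the sign of *Pla2g4a* (0.0464), *Ptgis* (0.106), *Ptges* (0.169) and *Ptgs1* (0.188). The sign of *Ptgs1* also turned with centring on all probe sets (0.00281) and with quantile normalization (0.0177), and that of *Ptges* with quantile normalization (0.168). With each array left out in turn *Ptgs1* ranged from -0.023 to 0.00304 and *Ptges* from -0.0661 to 0.0272, turning when STOSE replicate 1 or, for *Ptges*, M0505 replicate 1 was missing. Leaving out 1 array gave 955 to 1065 genes higher and 1508 to 1591 lower, 2 to 3 enzymes higher and 2 lower, and 3 to 4 pathway genes higher and 10 to 12 lower. *Ptgs2* fell under 2-fold without M0505 replicate 2 (0.98) or 3 (0.94). The deviations of same-numbered arrays correlated at 0.26, 0.04 and 0.25, and 5 of 6 arrays correlated best with their own number. With 3 arrays per line, these values cannot settle whether the replicate numbers pair the arrays. With the replicate block 1001 genes were called higher and 1548 lower, with 3 enzymes higher and 2 lower and 3 pathway genes higher and 11 lower. The methods' t-test gave 996 and 1546 genes at their threshold and 988 and 1543 after Benjamini-Hochberg adjustment. The cause of these changes was not tested.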
